A study of Mus musculus with 4 samples.

Results

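The subunits of the oxidative phosphorylation machinery were picked by gene symbol: complex I (Nduf), complex II (Sdh), complex III (Uqcr), complex IV (Cox5 to Cox8), ATP synthase (Atp5) and the protein genes of mitochondrial DNA (mt-). Muscle-type Cox6a2, pseudogenes and the complex I assembly factors named Ndufaf were left out, and a member needed at least 100 unique molecular identifiers (UMIs) over the 4 matrices. Of 43348 annotated features, 94 matched the names and 92 passed the minimum, 80 encoded in the nucleus and 12 in the mitochondrial genome. The 2 left out were mt-Nd3 (87 UMIs), just below the minimum, and Cox8c (1 UMI), while Cox7b2 (187), Cox8b (200) and Ndufa4l2 (253) lay just above it. Atp5s, Atp5sl, Cox7a2l and Ndufa4l2 matched by name and were assigned to no complex, while Ndufa4 was counted with complex IV.

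Complexes I and II pass electrons from NADH and succinate to ubiquinone, complex III passes them on to cytochrome c, and complex IV hands them to oxygen. Complexes I, III and IV pump protons as they do so, and ATP synthase, also called complex V, uses the return flow to make ATP. The mitochondrial genome encodes core subunits of complexes I, III, IV and V and none of complex II, so each of the mixed complexes needs transcripts from 2 genomes. Fast-spiking parvalbumin (PVALB) interneurons are known for their high energy use, which makes a comparison with somatostatin (SST) and neurogliaform (NGFC) interneurons of interest.

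The study examined how NMDA receptors shape interneurons born in the medial ganglionic eminence. Cells labeled through the Nkx2.1-Cre driver and a TdTomato reporter were sorted from frontal cortex and hippocampus of mice of both sexes at postnatal days 18 to 20. The null mice were homozygous for a floxed Grin1 allele, which encodes the obligatory NMDA receptor subunit, and their WT littermates carried the unaltered gene. The 4 matrices held 26987 cells from 10 libraries, 3 WT and 2 null for each region, of which 26201 cells were kept. The methods count 3 WT and 2 null biological replicates, so cortical and hippocampal libraries of a number are taken to belong to 1 replicate. More animals than replicates were used for each genotype, but nothing ties a library to particular animals.

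The driver is active before birth and also labels oligodendrocyte-lineage cells. A difference at this age can thus follow from development without the receptor. The Grin1 values below cover interneurons only, so receptor loss in the oligodendrocyte lineage was not examined here. In cortical SST cells the TMM-scaled CPM of Grin1 were 150, 256 and 238 in WT libraries 1 to 3 and 39.0 and 28.9 in null libraries 1 and 2. The hippocampal values were 117, 174 and 154 against 24.7 and 21.3. No null library overlapped a WT library in SST, PVALB or hippocampal NGFC cells, and the log2 difference lay at -2.70 in cortical SST (edgeR, adjusted p 0.0456) and -2.71 in hippocampal SST (adjusted p 0.0486). PVALB cells had 117, 207 and 184 CPM in cortical WT libraries against 44.6 and 21.4 CPM, and 103, 175 and 122.65 CPM in hippocampal WT libraries against 23.5 and 16.1 CPM. In PVALB cells the difference was -2.60 (adjusted p 0.0303) in cortex and -2.87 (adjusted p 0.0853) in hippocampus, and in hippocampal NGFC cells -2.47 (adjusted p 0.504). Grin1 thus missed the adjusted p limit of 0.01 in all 5 tests, each with 3 WT and 2 null libraries, although every null library was lower.

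The clusters were named by fixed marker lists, so the levels of these lists describe the classes and do not test their names. Summed SST markers ran from 9422 to 17060 CPM in SST cells of the 6 WT libraries, from 227 to 3916 CPM in PVALB cells and from 171 to 463 CPM in NGFC cells. PVALB markers ran from 3342 to 5380 CPM in PVALB cells, against 786 to 1248 CPM in SST and 347 to 675 CPM in NGFC cells. NGFC markers lay between 3401 and 4971 CPM in NGFC cells and under 473 CPM in the other 2 classes. The cortical null library 1 held 4 NGFC cells and was left out of that class.

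Library 1 of every group was made with version 2 of the 3' chemistry and the others with version 3, and the mix of mitochondrial transcripts differed with it. In WT SST cells, mt-Nd1, a core membrane subunit of complex I, stood at 5267 and 6350 CPM in the version 2 libraries and between 1353 and 1590 CPM in the 4 version 3 libraries. Complex IV subunit mt-Co3 stood at 28.4 and 54.1 CPM against 0.494 to 3.32 CPM, and ATP synthase subunit mt-Atp6 at 280 and 534 CPM against 23.7 to 72.1 CPM. The order was turned around for mt-Atp8 (24.4 and 25.3 against 139 to 1104 CPM) and for mt-Nd6 (1.98 and 2.84 against 14.6 to 109 CPM). None of these 5 transcripts overlapped between the chemistries, nor did mt-Nd2, mt-Co1, mt-Nd4l, mt-Nd4 and mt-Nd5, while mt-Co2 and mt-Cytb did. Such overlap was not counted over all genes, and replicate, chemistry and preparation cannot be told apart. The mt- members summed to 14965 and 15824 CPM with version 2 and to between 9120 and 12098 CPM with version 3, a log2 difference of -0.63 between the means. The nuclear members summed to a mean of 54214 CPM with version 2 and 52718 CPM with version 3, a log2 difference of -0.04. Differences of mt- genes between classes are therefore taken within libraries below.

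Counts of several members are uncertain because their last 500 bases hold 91-base stretches found elsewhere in the transcriptome. The share of such stretches was 99.8% for mt-Co3 (found in Gm28437), 99.3% for mt-Atp6 (Gm10925), 99.3% for mt-Co2, 98.6% for mt-Nd4l and 94.9% for mt-Co1 (Gm29216), so each value of these 5 genes below carries this doubt. For mt-Nd3, left out by the UMI minimum, the share was 97.7% (Gm28438). Gm28438 held 14689 UMIs against 87 for mt-Nd3, so the low count of mt-Nd3 carries the same doubt. Among nuclear members, Atp5l shared 68.8%, mostly with Gm10221, and Atp5h 46.3%.

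In SST cells the 80 nuclear members together took 5.78%, 5.39% and 5.65% of the nuclear-gene UMIs in cortical WT libraries 1 to 3, and 5.23%, 4.92% and 5.47% in hippocampal WT libraries 1 to 3. PVALB cells of the same libraries gave 7.26%, 6.75% and 7.54% in cortex and 6.16%, 6.20% and 6.29% in hippocampus. Each PVALB value exceeded every SST value of its region, and the WT means were 6.70% (SD 0.590) and 5.41% (SD 0.308). NGFC cells ranged from 4.49% to 5.94%, overlapping the SST range, and the oligodendrocyte lineage from 2.08% to 2.56%, below every interneuron value. Precursors of that lineage (2.87% to 3.49% in WT) lay above mature oligodendrocytes (1.58% to 2.30%) without overlap. By complex, PVALB cells of WT libraries gave 1.93% to 2.41% to complex I, 0.656% to 0.909% to complex III and 1.45% to 1.96% to ATP synthase. SST cells gave 1.60% to 1.98%, 0.520% to 0.702% and 1.11% to 1.42% to the same complexes, so the ranges touched for complexes I and III and not for ATP synthase.

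The 12 mt- members took 2.04%, 1.41% and 1.52% of all UMIs in PVALB cells of cortical WT libraries 1 to 3 and 2.01%, 1.322% and 1.81% in hippocampus. SST cells had 1.497%, 0.912% and 0.953% in cortex and 1.58%, 0.912% and 1.21% in hippocampus. PVALB cells thus stood above SST cells within each of the 6 libraries, although the ranges overlapped across libraries. The oligodendrocyte lineage had 0.774% to 1.49% in WT libraries, overlapping the SST cells, in contrast to its low nuclear share.

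**Figure D1:**
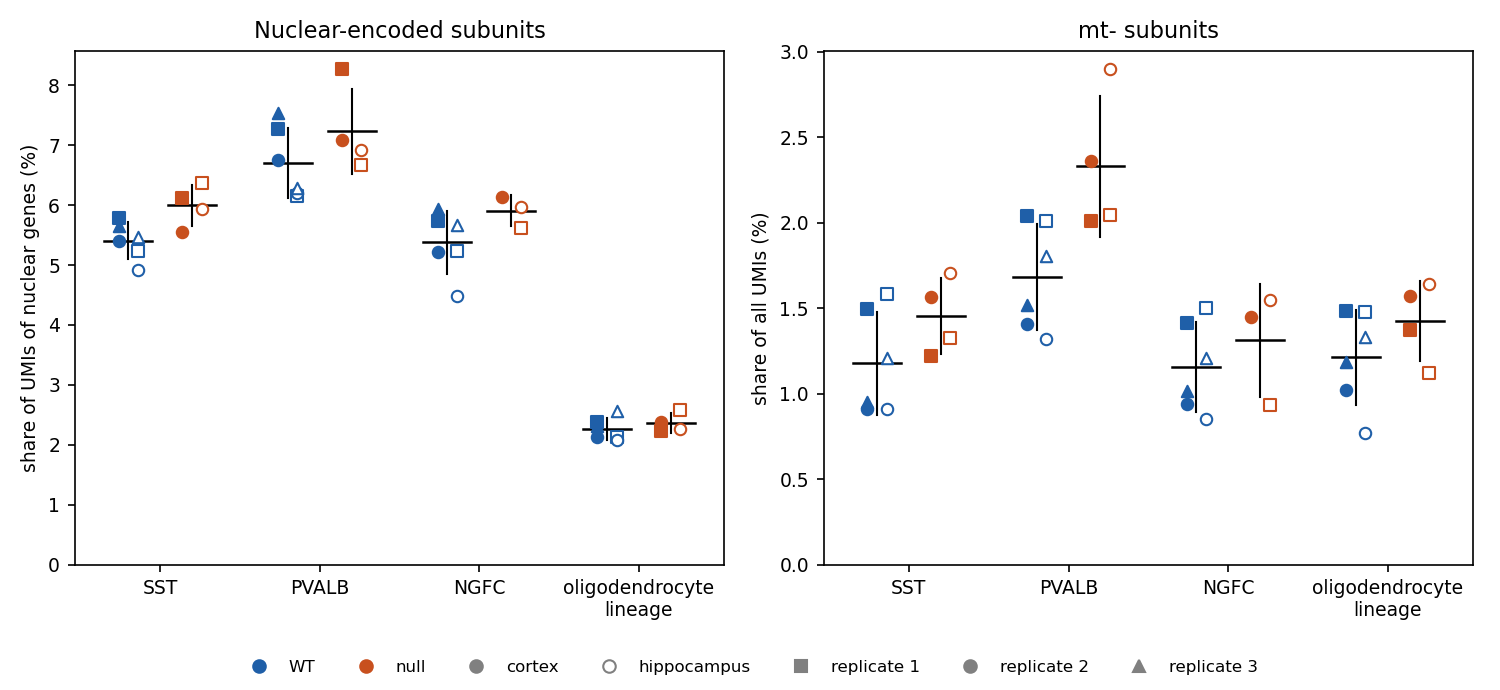
Summed share of nuclear members (percent of nuclear-gene UMIs) and of mt- members (percent of all UMIs) by class in each of the 10 libraries, with region and genotype marked. PVALB cells lie highest for the nuclear members and the oligodendrocyte lineage lowest. A class with fewer than 10 cells in a library has no point.

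Comparing PVALB with SST cells within the 6 WT libraries, edgeR called 62 of 88 tested members higher in PVALB and 0 lower, where 21.4% of all 9886 tested genes were called, 11.3% higher and 10.1% lower. By DESeq2, 68 members were higher and 0 lower, and at an unadjusted p under 0.05 by edgeR 0 members were lower. The median log2 difference was 0.31 for the members and 0.00 for all genes, and it kept its sign under library-size scaling for nuclear (0.28) and mt- members (0.52). Of the 76 nuclear members tested, 53 passed, and 62 were higher in every library. Of the 12 mt- members, 9 passed, and the same number was higher in every library. How many of all tested genes were higher in every library was not counted. The calls rested on pairing classes by library: without the library as a block 0 members passed (edgeR, 16 at an unadjusted p under 0.05), at a nearly equal median of 0.31. They also rested on counting the 2 regions of a replicate number apart, although these are not independent. With both regions of each number summed, an alternative chosen after seeing the data that leaves 3 WT replicates, edgeR called 30 of 89 members, all higher, with a median of 0.33. Of the members named below, Sdhb, Sdhd, Ndufa4, Atp5g1, mt-Co1, mt-Nd6, mt-Atp6 and mt-Atp8 then no longer passed. Counts under these and later alternatives are given without the share of all genes called, so they are not read as particular to the members.

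Complex I contributed 20 of 35 tested nuclear subunits. In this comparison Ndufa7, Ndufb6, Sdhc, Sdhd, Cox7b and the genes of related pathways were singled out after their values were seen. Ndufs1, the iron-sulfur subunit that carries electrons away from the NADH site (ENSMUSG00000025968, minus strand, chr1:63143596-63176833), ran from 65.6 to 151 CPM (median 118) in PVALB and from 45.0 to 94.7 CPM (median 83.1) in SST cells. The ranges overlapped across libraries, but PVALB was higher in 6 of 6 libraries, by 0.61 on the log2 scale (adjusted p 1.6e-05). Ndufv1, which binds NADH and its flavin, ran from 170.5 to 394.5 CPM (median 276) against 104 to 263.5 CPM (median 197). It too was higher in 6 of 6 libraries, by 0.49 (adjusted p 0.00062), with overlapping ranges. Among the subunits that did not pass, Ndufa7 averaged 588 CPM in each class (adjusted p 0.95), and Ndufb6 had medians of 413 and 435 CPM and was higher in 2 of 6 libraries (log2 -0.00, adjusted p 0.99).

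All 4 subunits of complex II, which also serves the citric acid cycle, passed. Sdha, the flavoprotein that oxidizes succinate (ENSMUSG00000021577, minus strand, chr13:74322254-74350280), ran from 239 to 348 CPM (median 271) in PVALB and from 178.5 to 261 CPM (median 208) in SST cells. The ranges overlapped and PVALB was higher in 6 of 6 libraries, by 0.39 (adjusted p 0.00088). Sdhb, the iron-sulfur subunit, ran from 284 to 637 CPM (median 470) against 275 to 521 CPM (median 378) and was higher in 6 of 6 libraries by 0.26 (adjusted p 0.0077). The membrane anchors Sdhc (medians 94.2 and 73.1 CPM, log2 0.45, adjusted p 0.00069) and Sdhd (medians 190 and 136 CPM, log2 0.37, adjusted p 0.00049) were also higher in 6 of 6 libraries.

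All 8 nuclear subunits of complex III passed. Uqcrfs1, the Rieske iron-sulfur protein, ran from 169 to 750 CPM (median 469) in PVALB and from 101 to 496 CPM (median 316) in SST cells. Despite this spread it was higher in 6 of 6 libraries, by 0.57 (adjusted p 4e-07). The core protein Uqcrc1 (ENSMUSG00000025651, plus strand, chr9:108936633-108949623) ran from 332 to 569 CPM (median 366.5) against 185 to 384 CPM (median 284). It was higher in 6 of 6 libraries by 0.52 (adjusted p 6.2e-06), with ranges that met near 332 to 384 CPM. Its mitochondrial partner mt-Cytb, the cytochrome b that moves electrons across the membrane, ran from 4017 to 7815 CPM (median 6369) against 2774 to 5316 CPM (median 4530) and was higher in 6 of 6 libraries by 0.51 (adjusted p 6.7e-08).

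In complex IV, 8 of 11 tested nuclear subunits passed. Cox7b, a small membrane subunit, ran from 1316 to 1592 CPM (median 1433) in PVALB and from 914 to 1184 CPM (median 1062) in SST cells. Its ranges did not overlap, and it was higher in 6 of 6 libraries by 0.46 (adjusted p 1.5e-05). Cox6c ran from 1534 to 3286 CPM (median 1947) against 1164 to 2357 CPM (median 1416) and was higher in 6 of 6 libraries by 0.42 (adjusted p 1.2e-05). For Ndufa4, a complex IV subunit despite its name, the values were 2583 to 4878 CPM (median 3337) against 2025 to 3362 CPM (median 2749), higher in 6 of 6 libraries by 0.32 (adjusted p 0.00063). Cox5a, a matrix subunit, ran from 1099 to 2738 CPM against 1003 to 2107 CPM and missed the limit (log2 0.21, higher in 6 of 6 libraries, adjusted p 0.021). The testis-type paralog Cox6b2 had medians of 8.54 and 7.87 CPM and was higher in 2 of 6 libraries (log2 -0.11, adjusted p 0.78), while the common form Cox6b1 had medians of 2060 and 1632 CPM (log2 0.37, adjusted p 5.2e-05, 6 of 6 libraries). Cox7a1, the muscle-type paralog of Cox7a2, averaged 11.5 CPM (SD 3.62) in PVALB and 5.43 CPM (SD 1.59) in SST cells, higher in 6 of 6 libraries but too sparse to be tested.

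ATP synthase had 13 of 15 tested nuclear subunits called. The catalytic subunit Atp5b (ENSMUSG00000025393, plus strand, chr10:128083273-128090391) ran from 723 to 1397 CPM (median 1027) in PVALB and from 478 to 895.5 CPM (median 669) in SST cells. The ranges overlapped, and PVALB was higher in 6 of 6 libraries by 0.60 (adjusted p 4.2e-05). Atp5a1, which alternates with it in the catalytic ring, ran from 605 to 1172 CPM (median 950) against 365 to 791 CPM (median 650) and was higher in 6 of 6 libraries by 0.59 (adjusted p 8.8e-07). The proton-carrying c subunit comes from 3 genes. Atp5g3 ran from 1263 to 2276 CPM (median 1479) against 921 to 1443 CPM (median 1041), higher in 6 of 6 libraries by 0.51 (adjusted p 6.6e-07). Atp5g1 had medians of 2110 and 1733 CPM (log2 0.30, adjusted p 0.00022, 6 of 6 libraries), and the sparse Atp5g2 medians of 5.69 and 6.03 CPM with PVALB higher in 3 of 6 libraries (log2 0.06, adjusted p 0.87).

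Among mitochondrially encoded complex I subunits, mt-Nd1 ran from 2070 to 8343 CPM (median 2406) in PVALB and from 1380 to 6283 CPM (median 1499) in SST cells. The highest values came from the version 2 libraries, and within libraries PVALB was higher in 6 of 6, by 0.59 (adjusted p 1.3e-07). Within libraries PVALB cells were also higher in the proton-pumping subunits mt-Nd2 (medians 1693 and 1152 CPM, log2 0.56, adjusted p 1.7e-07), mt-Nd4 (2928 and 2034 CPM, 0.52, 1.2e-07) and mt-Nd5 (603 and 410 CPM, 0.48, 7.7e-06), each in 6 of 6. For the light-strand gene mt-Nd6 the medians were 28.8 and 18.1 CPM (log2 0.59, adjusted p 0.0013, 6 of 6 libraries). The catalytic complex IV subunit mt-Co1 ran from 235 to 1192 CPM (median 777) against 191 to 921 CPM (median 499), and PVALB was higher in 6 of 6 libraries by 0.50 (adjusted p 2.8e-05). ATP synthase subunits mt-Atp6 (medians 79.5 and 55.2 CPM, log2 0.55, adjusted p 2.9e-05, 6 of 6 libraries) and mt-Atp8 (308 and 206 CPM, 0.48, 0.00011, 5 of 6) passed as well. Those not called were mt-Co2 (medians 14.6 and 12.4 CPM, adjusted p 0.03), mt-Co3 (4.79 and 2.71 CPM, adjusted p 0.28) and mt-Nd4l (22.1 and 16.6 CPM, adjusted p 0.017), with log2 differences of 0.49, 0.34 and 0.62, higher in 6, 4 and 4 of 6 libraries.

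**Figure D2:**
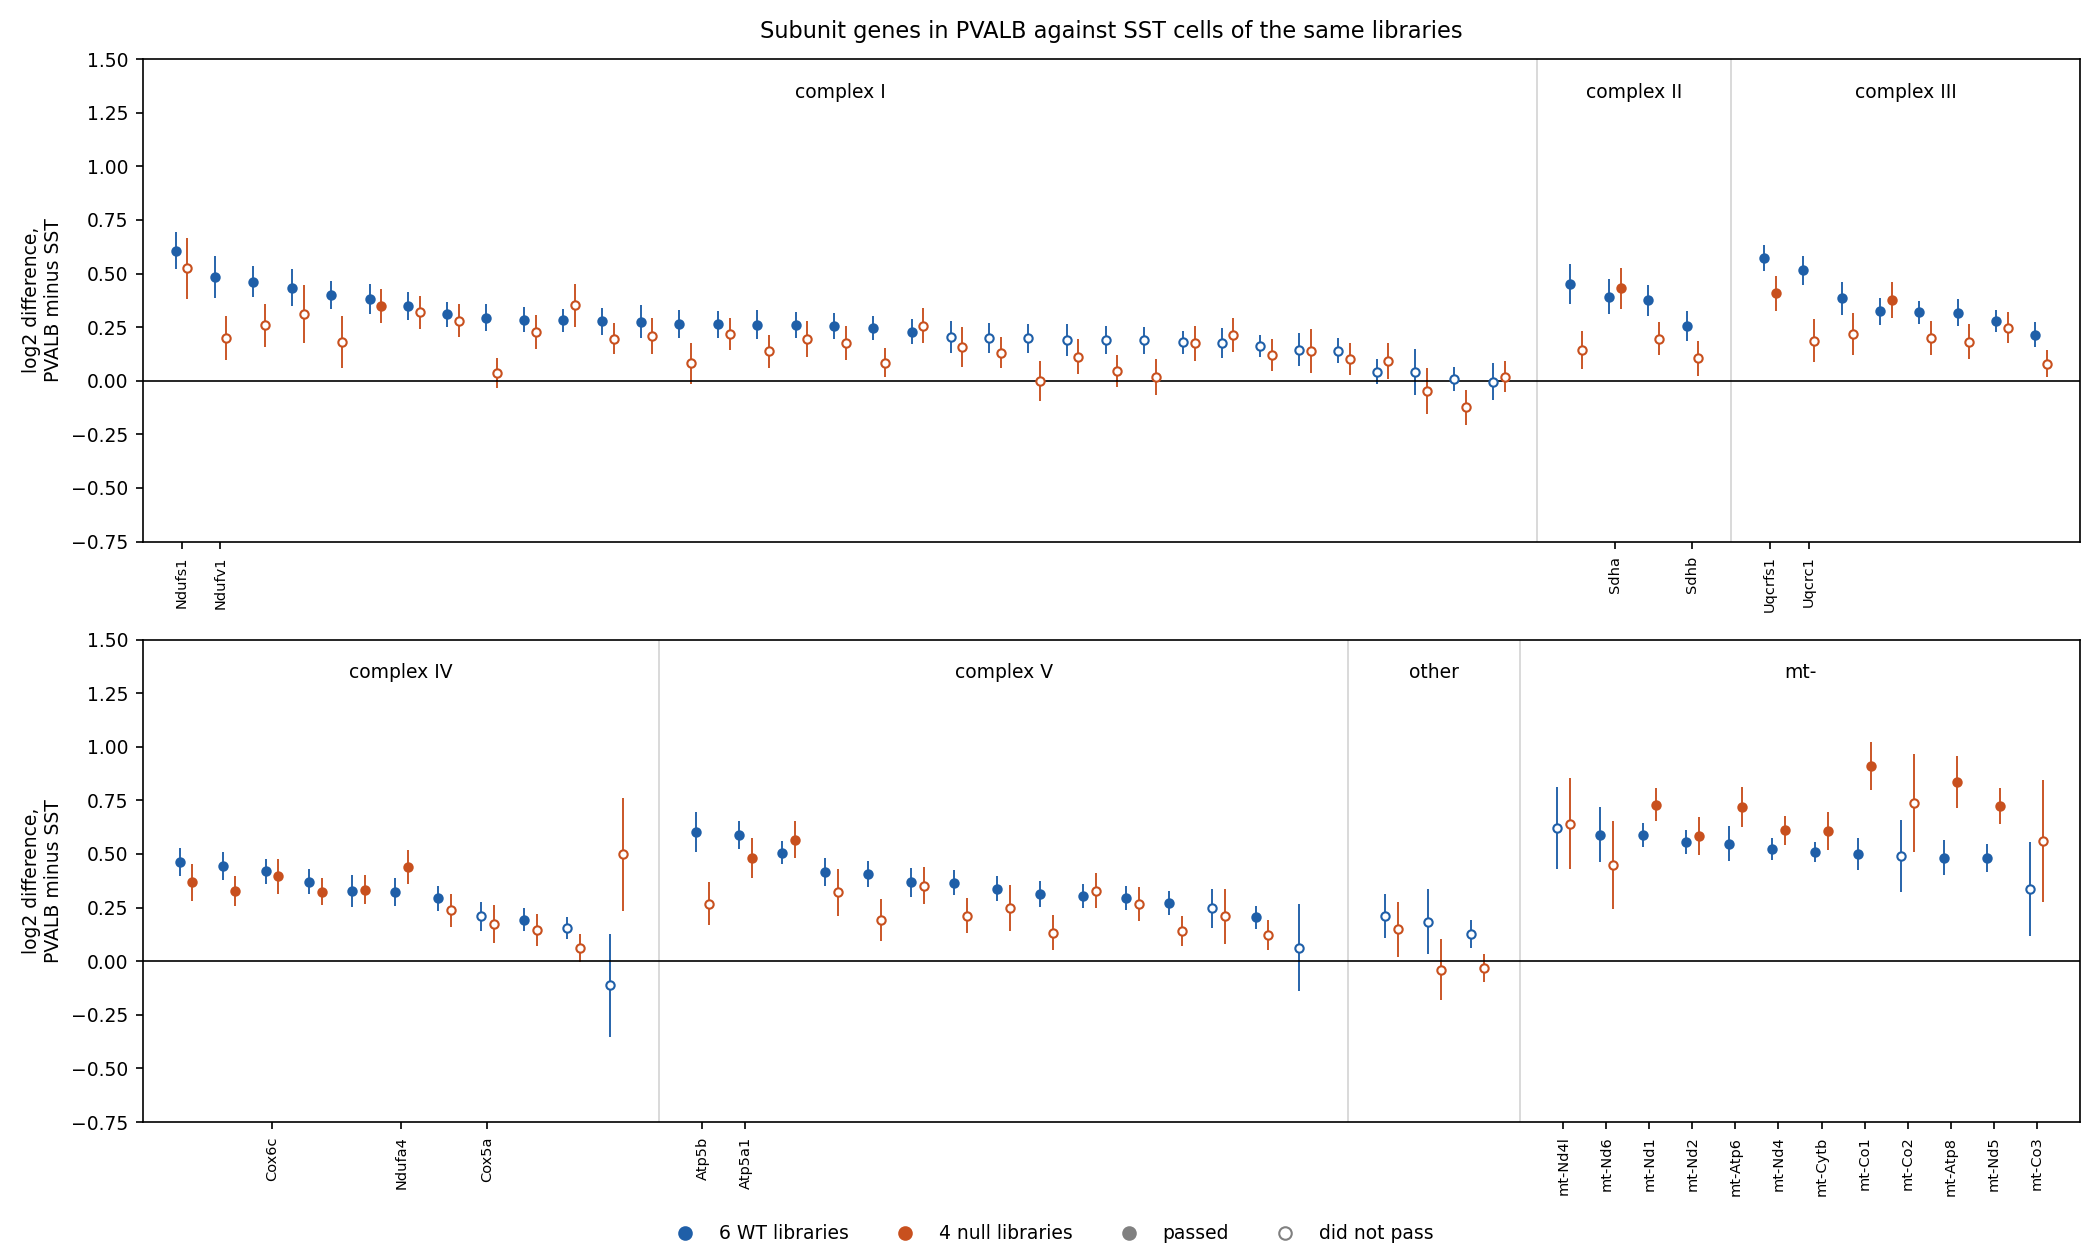
Log2 difference of PVALB minus SST cells for each tested member in WT and in null libraries, grouped by complex and ordered by the WT value, with nuclear and mt- members apart and core subunits and mt- genes labeled. Bars are standard errors. In WT libraries 62 of 88 members passed and in null libraries 20 of 88. No test of the difference between genotypes called a member.

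In the 4 null libraries, 20 of 88 members were called higher in PVALB than in SST cells and 0 lower (edgeR; 0 lower at an unadjusted p under 0.05 and 0 lower by DESeq2), where 13.3% of all genes were called, 6.82% higher and 6.50% lower. All 20 were also called in WT libraries, which is 32.3% of the WT calls and 100% of the null calls. Nuclear members passing numbered 12, and mt- members 8, with median log2 differences of 0.20 and 0.68. The count depended on the libraries: it was 9 without cortical null library 2, 10 without cortical null library 1 and 7 without hippocampal null library 2. It was 10 at a clustering resolution of 0.6, 12 without mitochondrial genes, 33 at an adjusted p limit of 0.05, 32 with classes taken from marker UMIs of single cells, and 0 without the library as a block (edgeR, 21 at an unadjusted p under 0.05). With both regions of each number summed it was 13, where Sdha no longer passed (adjusted p 0.016) and Ndufs1 did (0.0085).

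Among these, mt-Co1 stood at 262, 662.5, 307 and 630 CPM in SST cells of cortical null libraries 1 and 2 and hippocampal null libraries 1 and 2, and at 632, 1016, 588 and 1200 CPM in PVALB cells. Each PVALB value exceeded the SST value of its library, by 0.91 in the fit (edgeR, adjusted p 0.00012, 4 of 4 libraries). In the same order mt-Cytb had 4615, 7534, 4774 and 7570 CPM in SST and 6686, 10984, 7200 and 12789 CPM in PVALB cells. It was higher in 4 of 4 libraries by 0.61 (adjusted p 0.00044). Atp5g3 had 920, 1357, 1051 and 1376 CPM in SST and 1653, 1986, 1411 and 1915 CPM in PVALB cells, a rise of 0.57 (adjusted p 0.00061, 4 of 4 libraries) with no overlap. Sdha had 275, 230, 277 and 250 CPM against 423, 323, 330 and 322 CPM, also without overlap, and was higher by 0.43 (adjusted p 0.0063, 4 of 4 libraries). Ndufs1 had 82.8, 82.0, 118 and 105 CPM against 176, 129, 102 and 149 CPM and missed the limit (log2 0.52, adjusted p 0.018, higher in 3 of 4 libraries).

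A test of the class difference between genotypes, chosen after seeing the data, called 0 of 86 members for PVALB minus SST (edgeR, 9 at an unadjusted p under 0.05; DESeq2 0), and 0% of all 9530 genes, 691 of which lay under that unadjusted p. Its smallest p among members was for mt-Co1, where the PVALB minus SST difference was larger in null libraries by 0.40 (edgeR, adjusted p 0.45). The smaller count of calls in null libraries is thus not shown to be a smaller class difference. A like test between regions in WT libraries called 0 members (edgeR, 1 at an unadjusted p under 0.05; DESeq2 0) where 0.708% of all 9886 genes were called and 1030 lay under that unadjusted p.

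Genes of related pathways were also compared between PVALB and SST cells of WT libraries, where 11.3% of all genes were called higher. Of 15 tested genes of pyruvate oxidation and the citric acid cycle, 14 were called higher, with a median of 0.51. Among 41 tested assembly factors 12 were called higher, led by Atpaf1, which helps build the ATP synthase head (medians 68.5 and 35.3 CPM, log2 0.93, adjusted p 6.3e-08, 6 of 6 libraries). Subunits and electron carriers that the names did not match gave 5 of 6, among them cytochrome c, Cycs (medians 890 and 638 CPM, log2 0.38, adjusted p 0.00013, 6 of 6). Glycolysis was mixed, with 6 called higher and 1 lower of 16, and lactate dehydrogenase Ldhb had medians of 1355 and 735 CPM (log2 0.96, adjusted p 1.6e-08, 6 of 6). In phosphate transfer 7 of 9 were higher, such as creatine kinase Ckb (medians 2345 and 1169 CPM, log2 1.06, adjusted p 3.7e-07, 6 of 6).

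Of 13 tested regulators of mitochondrial genes, 4 were called higher in PVALB cells of WT libraries, against 11.3% of all genes. The coactivator Ppargc1a ran from 278 to 328 CPM (median 294) in PVALB and from 124 to 259 CPM (median 179) in SST cells. Its ranges did not overlap, and it was higher in 6 of 6 libraries by 0.85 (adjusted p 4e-05). The nuclear receptor Esrrg ran from 54.0 to 71.5 CPM (median 64.1) against 10.6 to 26.1 CPM (median 19.6), higher in 6 of 6 libraries by 1.97 (adjusted p 4e-09), again with no overlap. The transcription factors Nrf1 (log2 0.11) and Tfam (log2 0.14) did not pass. Of the 10 genes tracking RNA quality and handling, Egr1 was the only call in WT libraries (log2 -0.82, lower in 6 of 6). The 8 oligodendrocyte markers had a median of 0.25 with 0 called by edgeR, and whether carried-over RNA adds to the class difference was not tested.

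PVALB cells also stood above NGFC cells in WT libraries, with 57 of 88 members called higher and 0 lower (edgeR, 1 lower at an unadjusted p under 0.05; DESeq2 64 higher and 0 lower), where 23.8% of all genes were called, 12.1% higher and 11.7% lower. The nuclear median was 0.35 (48 of 76 called) and the mt- median 0.51 (9 of 12 called). Uqcrc1 ran from 332 to 569 CPM in PVALB and from 174 to 303 CPM (median 233) in NGFC cells, with no overlap. It was higher in 6 of 6 libraries by 0.77 (adjusted p 9.8e-08). Atp5g3 ran from 736 to 1324 CPM (median 870) in NGFC cells and was higher in PVALB cells in 6 of 6 libraries by 0.74 (adjusted p 5.9e-09), its ranges overlapping slightly. Ndufv1 had medians of 276 and 162 CPM (log2 0.65, adjusted p 8.5e-05, 6 of 6 libraries). Without the library as a block 2 members were called. As against SST cells, the calls counted the 2 regions of a replicate number apart, although these are not independent. Of the 10 genes tracking RNA quality and handling, Malat1 (log2 -0.55) and Dnajb1 (-0.66) were called lower in PVALB, each in 6 of 6 libraries, and Meg3 (0.39) higher, with a median of -0.46. Whether RNA quality bears on the member differences was not tested. Between regions this class difference gave 0 calls among members (edgeR, 8 at an unadjusted p under 0.05; DESeq2 0) and 0.253% of all genes, 837 of 9886 of which lay under that unadjusted p.

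In null libraries 23 of 88 members were called higher in PVALB than in NGFC cells and 0 lower (edgeR, 1 lower at an unadjusted p under 0.05; DESeq2 0 lower), where 19.1% of all genes were called, 10.7% higher and 8.33% lower. Of these, 22 were also called in WT libraries, 38.6% of the WT calls and 95.7% of the null calls. The mt- median was 0.93 and the nuclear median 0.23. mt-Nd5 stood at 221, 471 and 509 CPM in NGFC cells of hippocampal null library 1, cortical null library 2 and hippocampal null library 2, and at 528, 1077 and 1208 CPM in PVALB cells. All 3 PVALB values lay above the NGFC range, and the log2 difference was 1.26 (edgeR, adjusted p 3e-06). Cortical and hippocampal null library 2 share a replicate number, so the 3 libraries are not independent, here and in the other tests of this comparison. mt-Co1 stood at 193, 532 and 548 CPM against 588, 1016 and 1200 CPM in the same libraries, higher in 3 of 3 by 1.23 (adjusted p 2.2e-05). Cox7a1 was at 1.48, 1.79 and 2.999 CPM against 13.9, 8.36 and 7.74 CPM, higher in 3 of 3 libraries. NGFC cells summed to only 699202 UMIs in hippocampal null library 1 and 1103539 in cortical null library 2. The NGFC values thus rest on few UMIs, and the size of the fitted difference (log2 1.66, edgeR, adjusted p 0.0074) is uncertain. The genotype test for this class difference called 0 members (edgeR, 23 of 86 at an unadjusted p under 0.05; DESeq2 3) and 0% of all genes, 1057 of 9530 of which lay under that unadjusted p, with mt-Nd5 nearest the limit (0.65, adjusted p 0.036). The count was 11 without cortical null library 2, 13 without cortical null library 1, 9 without hippocampal null library 2 and 13 without hippocampal null library 1. It was 12 without mitochondrial genes, 39 at an adjusted p limit of 0.05 and 1 without the library as a block. Of the 10 RNA-quality genes, 5 were called lower in PVALB and 1 higher, with a median of -0.90, and Malat1 was lower in 3 of 3 libraries (log2 -0.61). Whether this bears on the member differences was not tested.

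NGFC and SST cells of WT libraries differed in fewer members, with 10 of 88 called, 4 higher and 6 lower in NGFC, where 23.9% of all genes were called, 11.9% higher and 12.0% lower. Ndufa8, an intermembrane-space subunit of complex I, ran from 534.5 to 1224 CPM (median 1002) in NGFC and from 388 to 812 CPM (median 791) in SST cells. The ranges overlapped, and it was higher in 6 of 6 libraries by 0.41 (adjusted p 2.6e-05). Ndufb8, a membrane-arm subunit, ran from 728 to 826 CPM (median 760) against 855 to 1047 CPM (median 910), and fell without overlap in 6 of 6 libraries (log2 -0.28, adjusted p 0.00084). Ndufa10 had medians of 294 and 369 CPM and was lower in 6 of 6 libraries (log2 -0.35, adjusted p 0.0018), and so were Cox5a (1255 and 1466 CPM, -0.25, adjusted p 0.0059) and Uqcrc1 (233 and 284 CPM, -0.26, adjusted p 0.0083). Calls numbered 3 without cortical WT library 1, 6 without library 2 and 5 without library 3 of cortex, 5 without hippocampal WT library 2 and 6 without hippocampal WT library 3. Without the library as a block edgeR called 0 (1 at an unadjusted p under 0.05), and with both regions of each number summed 4, all lower, with Ndufa8 no longer passing. Of the 10 RNA-quality genes, 4 were called higher and 1 lower in NGFC cells, with a median of 0.36. The difference between regions gave 0 calls (edgeR, 3 at an unadjusted p under 0.05; DESeq2 0) and 0.718% of all genes, 1152 of 9886 of which lay under that unadjusted p.

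In null libraries, 4 of 88 members were called between NGFC and SST cells, 1 higher and 3 lower, where 17.0% of all genes were called, 7.43% higher and 9.59% lower. Ndufa8 stood at 950, 935 and 1001 CPM in NGFC cells of hippocampal null library 1, cortical null library 2 and hippocampal null library 2, and at 815, 739 and 705 CPM in SST cells. All 3 NGFC values lay above the SST values (log2 0.37, edgeR, adjusted p 0.0036). mt-Nd5 stood at 221, 471 and 509 CPM against 354, 743 and 670.5 CPM, lower in 3 of 3 libraries (log2 -0.54, adjusted p 0.001). All 12 mt- members had negative differences, with a median of -0.24. Of the calls, 2 were shared with WT libraries, 20% of the WT calls and 50% of the null calls, and the test of the difference between genotypes called 0 (edgeR, 6 at an unadjusted p under 0.05, against 391 of all 9530 genes; DESeq2 0). edgeR called 0 when cortical null library 2 or hippocampal null library 2 was left out and 0 without the library as a block (4 at an unadjusted p under 0.05), while the count was 2 without mitochondrial genes, 7 with no cell left out, 8 by DESeq2, 8 with no filter on low counts and 11 at an adjusted p limit of 0.05. With both regions of each number summed Ndufa8 no longer passed. NGFC cells had higher levels of RNA-quality genes in null libraries, 6 called higher and 1 lower with a median of 0.95, and whether this bears on the mt- values was not tested.

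Interneurons and the oligodendrocyte lineage stood further apart: 69 of 89 members were called in WT libraries, 60 higher and 9 lower in interneurons. Of all 12128 genes, 68.5% were called, 34.1% higher and 34.4% lower. The 60 were all nuclear, while 6 of the 9 were mt- genes. The median was 0.80 for nuclear and -0.34 for mt- members, and under library-size scaling, which moved the median of all genes from -0.02 to 0.38, these became 1.21 and 0.05, so that the sign of the mt- median flipped. Atp5g3 ran from 778 to 1493 CPM (median 989) in interneurons and from 206 to 318 CPM (median 221) in the lineage, with no overlap, and was higher in 6 of 6 libraries by 2.03 (adjusted p 4.1e-08). Cox7b ran from 886.5 to 1082 CPM against 177 to 296 CPM (log2 1.99, adjusted p 4.9e-08, 6 of 6 libraries), again with no overlap. The muscle-type Cox7a1 ran from 4.14 to 6.67 CPM against 0.226 to 1.52 CPM, higher in 6 of 6 libraries. Such lineage values rest on few UMIs, so the size of the fitted difference (log2 2.50, edgeR, adjusted p 2.8e-05) is uncertain.

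Some members went the other way. Cox6b2 ran from 2.86 to 10.7 CPM in interneurons and from 9.70 to 39.3 CPM in the lineage of WT libraries and was lower in 6 of 6 libraries (log2 -1.58, adjusted p 0.00024). Atp5g2, the sparse c-subunit paralog, ran from 3.27 to 8.11 CPM against 7.06 to 16.5 CPM, lower in 6 of 6 libraries (log2 -0.83, adjusted p 0.00068), in contrast to Atp5g3. mt-Co1 ran from 151 to 801 CPM (median 491) against 349 to 1122 CPM (median 829) and was lower in 6 of 6 libraries (log2 -0.80, adjusted p 8.6e-05), and mt-Nd4 was lower in 6 of 6 (-0.60, adjusted p 0.00057). mt-Nd2, also called lower at -0.40 (adjusted p 0.007, 6 of 6 libraries), turned to 0.01 under library-size scaling. Neither mt-Nd2 nor mt-Nd4 passed with both regions of each number summed. Ndufs1, with medians of 77.9 and 61.2 CPM, was not called (log2 0.21, adjusted p 0.18, higher in 4 of 6 libraries).

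In null libraries 60 of 89 members were called between interneurons and the lineage, 56 higher and 4 lower, where 66.6% of all genes were called, 33.6% higher and 32.9% lower. The same direction was called in WT libraries for 59 of them, 85.5% of the WT calls and 98.3% of the null calls. The nuclear median was 0.78 and the mt- median -0.39, and the latter turned to 0.09 under library-size scaling, which moved the median of all genes to 0.44. Cox6b2 stood at 11.2, 5.24, 9.60 and 3.32 CPM in interneurons of cortical null libraries 1 and 2 and hippocampal null libraries 1 and 2, and at 51.1, 23.4, 30.5 and 28.5 CPM in the lineage. The groups did not overlap, and it was lower in 4 of 4 libraries (log2 -2.44, edgeR, adjusted p 1.9e-07). The complex II anchor Sdhc stood at 96.3, 81.0, 121 and 78.2 CPM against 153, 111, 165 and 105 CPM in the same order. It was lower in 4 of 4 libraries with overlapping ranges (log2 -0.47, adjusted p 0.0026), and this difference became 0.007 under library-size scaling.

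Between regions, edgeR called 0 members in WT SST cells (0 of 89 at an unadjusted p under 0.05; DESeq2 0), where 0.0518% of all genes were called (0.0432% higher in hippocampus and 0.00864% lower). PVALB cells gave 0 of 86 (2 at that unadjusted p; DESeq2 0; 0.0342% of all genes) and NGFC cells 0 of 84 (0 at that unadjusted p; DESeq2 0; 0% of all genes). Nuclear medians of hippocampus minus cortex were -0.17, -0.24 and -0.14 in SST, PVALB and NGFC cells, and mt- medians 0.20, 0.09 and 0.17. Within the pairs of WT libraries that share a number, the summed nuclear share given above was lower in hippocampus in 3 of 3 pairs of SST and of PVALB cells. NGFC cells had 5.74%, 5.22% and 5.94% in cortical and 5.23%, 4.49% and 5.66% in hippocampal WT libraries 1 to 3, also lower in 3 of 3 pairs. The regions differed in the clusters that made up each class. Cluster 24 held 10.9%, 13.2% and 4.65% of PVALB cells in cortical and 29.4%, 44.7% and 14.1% in hippocampal WT libraries 1 to 3. Cluster 9 held 3.24%, 13.8% and 7.17% of cortical and 4.12%, 68.35% and 11.4% of hippocampal SST cells. In NGFC cells, cluster 17 held 2.08%, 4.97% and 4.85% in cortex and 2.30%, 99.2% and 9.48% in hippocampus. Whether this composition bears on the lower nuclear share was not tested. In PVALB cells Ndufa9, which stabilizes the arm of complex I in the matrix, stood at 217, 167 and 204 CPM in cortical WT libraries 1 to 3 and at 120, 112.5 and 131 CPM in hippocampal WT libraries 1 to 3. All hippocampal values were lower, by 0.69 on the log2 scale (edgeR, p 0.017, adjusted p 0.823). Uqcrc1 in SST cells stood at 384.5, 302 and 319 CPM in cortex and at 183, 264 and 257.5 CPM in hippocampus, again without overlap (log2 -0.51, edgeR, adjusted p 0.851). The 8 oligodendrocyte markers summed to 1064, 1134 and 459 CPM in SST cells of cortical WT libraries 1 to 3 and to 2185, 3856 and 1176 CPM in hippocampus. In SST cells all 8 had positive differences with a median of 1.42 and 0 called. PVALB cells had sums of 191, 1563 and 743 CPM in cortex and 2114, 4143 and 2922 CPM in hippocampus. NGFC cells had 2760, 138 and 2818 CPM against 2288, 6472 and 936 CPM, higher in hippocampus within replicate 2 only. Whether carried-over oligodendrocyte RNA lowers the hippocampal nuclear share was not tested.

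Comparing null with WT libraries, edgeR called 0 of 90 members in cortical SST cells (1 at an unadjusted p under 0.05; DESeq2 0), and 0% of all 12442 genes, of which 222 lay under that unadjusted p. Cortical PVALB cells gave 0 of 88 (0 at that unadjusted p; DESeq2 0), where 0.0103% of all 9692 genes were called and 363 lay under it. The 3 members with the smallest p in cortical SST cells were Cox7a1, Atp5l and Ndufa4. Ndufa4 stood at 2778, 2689 and 3360 CPM in WT libraries 1 to 3 and at 3668 and 3850 CPM in null libraries 1 and 2 of cortical SST cells. Neither null value overlapped WT (log2 0.35, edgeR, p 0.18, adjusted p 0.999). Cox7a1 stood at 5.57, 4.85 and 2.98 CPM against 7.31 and 9.53 CPM, without overlap (log2 1.02, edgeR, p 0.027, adjusted p 0.999), and Atp5l at 72.8, 45.5 and 74.6 CPM against 41.4 and 34.6 CPM (log2 -0.78, edgeR, adjusted p 0.999). Cortical PVALB cells had Ndufa4 at 3535, 3156 and 4905 CPM in WT and 5651 and 5888 CPM in null libraries (log2 0.58, edgeR, p 0.059, adjusted p 1). The 10 RNA-quality genes had negative differences in cortical SST and PVALB cells, with 0 called by edgeR and 0 at an unadjusted p under 0.05, but cortical WT library 2 stood apart from the other WT libraries in the stress genes. In cortical SST cells Fos stood at 27.0, 215 and 38.3 CPM in WT and 24.4 and 42.4 CPM in null libraries, and Egr1 at 20.8, 185 and 31.5 CPM against 47.6 and 57.8 CPM, above WT libraries 1 and 3.

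In hippocampus, edgeR called 0 of 90 members in SST cells (9 at an unadjusted p under 0.05, all higher in null; DESeq2 0) and 0% of all genes. PVALB cells gave 0 of 88 (1 at that unadjusted p; DESeq2 0; 0% of all genes), and NGFC cells 0 of 87 (5 at that unadjusted p, all higher; DESeq2 0; 0% of all genes). Over all genes, 499 of 12442 in SST, 291 of 9692 in PVALB and 317 of 9661 in NGFC cells lay under that unadjusted p, of which 301 of the 499 were higher in null. With no filter on low counts 1 member was called in SST and 1 in NGFC cells. Atp5b stood at 465, 544 and 840 CPM in SST cells of hippocampal WT libraries 1 to 3 and at 1493 and 997 CPM in null libraries 1 and 2. Both null values were higher (log2 1.01, edgeR, p 0.013, adjusted p 0.947). In NGFC cells Atp5b stood at 398, 507 and 909 CPM against 1499 and 971.5 CPM (log2 1.03, edgeR, p 0.017, adjusted p 0.961), and Uqcrc1 at 172, 212 and 216 CPM against 439 and 281 CPM (log2 0.84, edgeR, adjusted p 0.961). Ndufa4 in hippocampal PVALB cells stood at 2568, 2654 and 3736 CPM against 4566 and 4717 CPM, without overlap (log2 0.64, edgeR, p 0.04, adjusted p 1).

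Nuclear members had positive median differences of null minus WT in all 5 comparisons: 0.03 in cortical SST, 0.28 in hippocampal SST, 0.05 in cortical PVALB, 0.15 in hippocampal PVALB and 0.24 in hippocampal NGFC cells. The medians of all genes lay between -0.04 and -0.01, and library-size scaling left the 5 nuclear signs as they were. Compared within replicate numbers, 65 and 59 of the 80 nuclear members stood higher in the null library of hippocampal SST cells, 49 in both pairs. Over all 15103 nuclear genes with at least 100 UMIs, 40.6% and 53.3% stood higher in these pairs, 22.6% in both. In hippocampal NGFC cells the members gave 48 and 65 (45 in both; all genes 39.8% and 52.6%), in the hippocampal oligodendrocyte lineage 61 and 56 (44 in both; 39.8% and 46.5%) and in hippocampal PVALB cells 48 and 51 (32 in both; 41.7% and 54.7%). Cortical SST cells gave 50 and 40 (22 in both; 43.2% and 47.2%), cortical PVALB cells 51 and 39 (25 in both; 38.3% and 46.4%) and the cortical lineage 29 and 53 (17 in both; 31.5% and 42.8%). In cortical NGFC cells only replicate 2 was compared, with 59 higher (all genes 45.5%). For the mt- members the medians were 0.15, -0.04, 0.28, 0.33 and -0.39 in the same order, with version 2 chemistry in 1 of 3 WT and 1 of 2 null libraries. With the replicate number as a block the mt- medians of hippocampal SST and NGFC cells were 0.09 and -0.03. Within replicates 1 and 2, the members standing higher in the null library numbered 6 and 8 of 12 in hippocampal SST, 9 and 9 in hippocampal PVALB, 4 and 7 in hippocampal NGFC, 4 and 9 in cortical SST and 6 and 10 in cortical PVALB cells. The log2 ratio of the summed mt- share, null over WT, was -0.26 in replicate 1 and 0.90 in replicate 2 of hippocampal SST cells, -0.68 and 0.86 in hippocampal NGFC cells and -0.30 and 0.78 in cortical SST cells, so its sign turned between replicates. In PVALB cells it was -0.02 and 0.75 in cortex and 0.03 and 1.13 in hippocampus. The test of the genotype difference between regions called 0 members in SST cells and 0 in PVALB cells (edgeR, 0 at an unadjusted p under 0.05 in either; DESeq2 0) and 0% of all genes.

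Among other energy genes in hippocampal SST cells the medians were 0.62 for glycolysis, 0.33 for the citric acid cycle, 0.49 for phosphate transfer, 0.12 for assembly factors and 0.06 for regulators, with 0 called by edgeR. At an unadjusted p under 0.05 stood 7 of 16 glycolysis genes, 2 of 15, 3 of 9, 2 of 41 and 0 of 17 in that order, against 499 of all 12442 genes. Depth and RNA quality differed between the same libraries. SST cells had median UMIs of 5938, 1893 and 10774.5 in hippocampal WT libraries 1 to 3 and 11883.5 and 15112 in null libraries 1 and 2. Malat1, a nuclear RNA, stood at 22767, 53981 and 13619 CPM in WT and at 27462 and 7148 CPM in null libraries. The 10 RNA-quality genes were positive for 4 and negative for 6, with a median of -0.40 and 0 called by edgeR. Cluster 9 was a low-depth group that matched SST best by its markers, although no SST marker stood among its leading genes. It made up 4.12%, 68.35% and 11.4% of the SST cells of hippocampal WT libraries 1 to 3 and 19.1% and 6.11% of those of null libraries 1 and 2, lower in null within replicate 2 and higher within replicate 1. In NGFC cells, cluster 17 (median 1664 UMIs) held 99.2% of hippocampal WT library 2, while cluster 2 held 97.7% and 90.5% of WT libraries 1 and 3 and 98.4% and 95.1% of null libraries 1 and 2. In cortical PVALB cells, cluster 1 held 81.9%, 85.0% and 92.65% of WT libraries 1 to 3 and 71.4% and 47.8% of null libraries 1 and 2. The 8 oligodendrocyte markers summed to 2185, 3856 and 1176 CPM in SST cells of hippocampal WT libraries 1 to 3 and to 1884 and 1402 CPM in null libraries 1 and 2, lower in null within both replicates. In hippocampal NGFC cells they stood at 2288, 6472 and 936 CPM against 2344 and 1757 CPM, and in hippocampal PVALB cells at 2114, 4143 and 2922 CPM against 2169 and 1027 CPM, lower in null within replicate 2 only. Whether depth, RNA quality, these clusters or carried-over oligodendrocyte RNA underlie the higher nuclear values was not tested, and genotype and library preparation cannot be told apart with 2 null libraries per region.

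**Figure D3:**
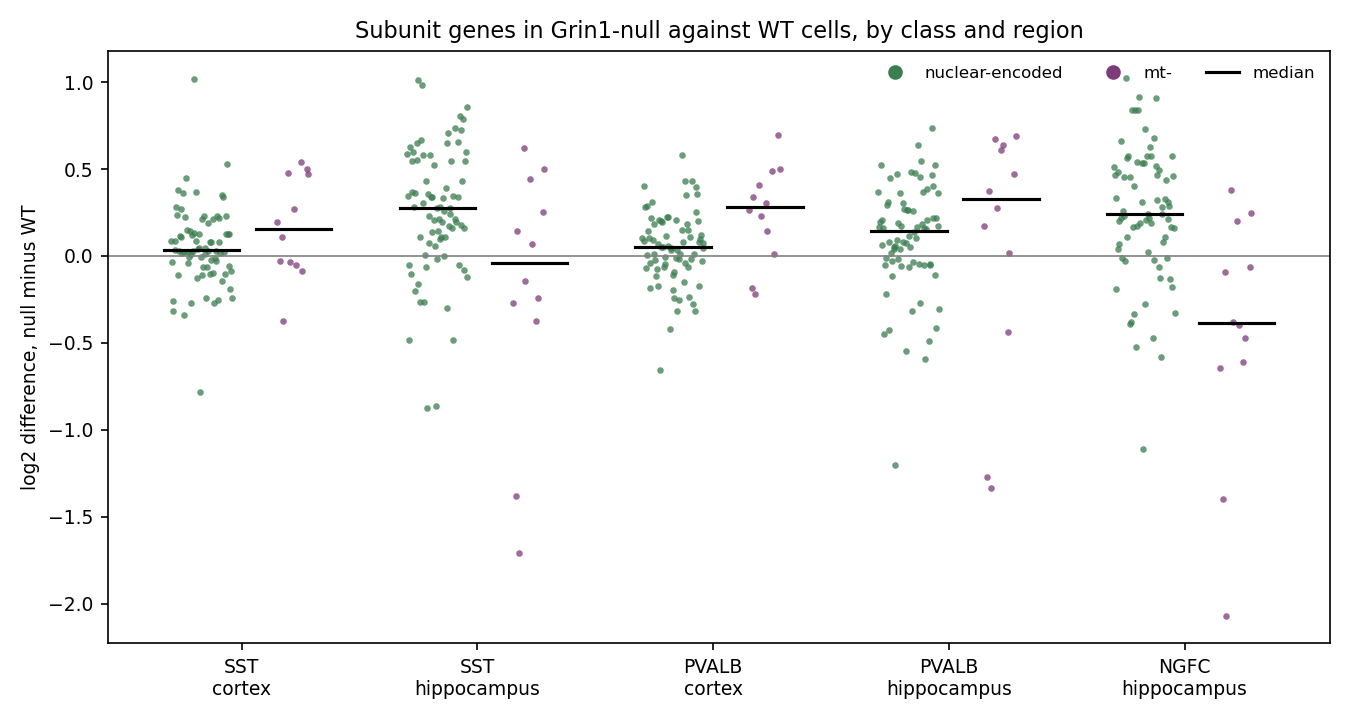
Log2 difference of null minus WT for each tested member in SST and PVALB cells of cortex and hippocampus and in hippocampal NGFC cells, nuclear and mt- members apart. No member passed the test in any of the 5 comparisons. Cortical NGFC cells were not tested, since only 1 null library held at least 10 of them.

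Promoter sequence was not used in choosing the members. RefSeq starts of GRCm38.p6 gave 66 of 80 nuclear members a 300-base promoter, read on both strands. The NRF1 motif, 10 bases with any base allowed at 1 position, was present in 25.8% of these, against 5.19% of all 27025 gene promoters. The YY1 motif was present in 15.2% against 2.76%, and the ETS motif in 7.58% against 4.31%. Any of the 3 occurred in 30 of the 66, against 11.2% of all gene promoters, and no test of these shares was made. The promoters below were picked because they hold a motif, from subunits of complexes II, III and V that passed between PVALB and SST cells in WT libraries. Others that passed, such as Sdhb, Uqcrfs1 and Atp5g1, have none of the 3 motifs. The capitals mark NRF1 motifs, or in Atp5b the YY1 motif on the opposite strand. Their places are chr9:108936398-108936697 (Uqcrc1, plus strand), chr2:73911277-73911576 (Atp5g3, minus strand), chr13:74350191-74350490 (Sdha, minus strand) and chr10:128083057-128083356 (Atp5b, plus strand). No motif was tested for a role in these cells.
Uqcrc1: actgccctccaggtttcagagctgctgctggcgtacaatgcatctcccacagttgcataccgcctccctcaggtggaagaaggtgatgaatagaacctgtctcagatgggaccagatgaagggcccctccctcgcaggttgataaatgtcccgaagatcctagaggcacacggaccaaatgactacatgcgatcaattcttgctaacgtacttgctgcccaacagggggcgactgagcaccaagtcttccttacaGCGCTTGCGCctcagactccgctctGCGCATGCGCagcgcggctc
Atp5g3: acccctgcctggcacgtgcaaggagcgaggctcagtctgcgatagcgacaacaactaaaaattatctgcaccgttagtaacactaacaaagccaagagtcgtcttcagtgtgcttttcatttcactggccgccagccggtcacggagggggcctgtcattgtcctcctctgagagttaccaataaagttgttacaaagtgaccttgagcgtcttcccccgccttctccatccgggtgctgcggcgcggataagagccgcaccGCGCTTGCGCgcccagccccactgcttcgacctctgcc
Sdha: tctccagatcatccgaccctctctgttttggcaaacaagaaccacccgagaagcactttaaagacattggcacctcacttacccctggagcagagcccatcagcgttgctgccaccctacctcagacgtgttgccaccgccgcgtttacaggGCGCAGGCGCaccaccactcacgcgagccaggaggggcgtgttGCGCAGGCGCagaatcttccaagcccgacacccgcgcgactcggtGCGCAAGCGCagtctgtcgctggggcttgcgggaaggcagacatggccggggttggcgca
Atp5b: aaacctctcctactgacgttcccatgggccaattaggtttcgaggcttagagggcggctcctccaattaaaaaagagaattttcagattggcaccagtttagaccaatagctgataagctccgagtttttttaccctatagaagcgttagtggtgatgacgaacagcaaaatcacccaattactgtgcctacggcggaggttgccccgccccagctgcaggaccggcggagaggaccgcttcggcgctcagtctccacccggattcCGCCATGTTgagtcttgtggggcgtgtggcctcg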

How the data were processed

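The deposited matrices hold UMI counts per gene and cell, which the authors made with Cell Ranger (2.1.1 in the methods, 3.0.2 in the matrix headers) on mm10, with gene ends extended by 4 kb. Barcode suffixes were matched to replicates by the numbers of cells in the methods, and libraries shared at most 12 barcodes. Median UMIs per cell ran from 1479 (hippocampal WT library 2) to 9508 (hippocampal null library 2). The filter on cells asked for 200 to 6000 genes and less than 30% of UMIs from mitochondria. Seurat 5.3.0 (2000 variable features, none of them members or mt- genes, 25 dimensions, resolution 1.0) gave 35 clusters, named by markers, with TH cells in the SST class. Clusters 19, 26, 31 and 34 were left unnamed and belong to no class. Of these, cluster 26 (344 cells) matched SST best, but its top genes held more PVALB markers. Doublets were kept, and the 249 marked by Scrublet (scanpy 1.11.5) were removed as an alternative. UMIs per class and library (at least 10 cells) were tested in edgeR 4.0.16 under R 4.3.3 by the quasi-likelihood test with Benjamini-Hochberg adjustment over all tested genes, scaled by TMM. A call needed an adjusted p under 0.01 and a log2 change of at least 0.144. CPM means UMIs scaled to a common total, with TMM for tested genes and without it for markers, Malat1 and the comparison of chemistries, and class comparisons had the library as a block. Deviations from the region mean in WT cortex and hippocampus of the same number correlated at 0.657, 0.622 and 0.393 in SST, 0.536, 0.559 and 0.320 in PVALB and 0.552, 0.450 and 0.191 in NGFC cells. Pairs of unlike numbers reached at most 0.188, 0.130 and 0.203, the last above the like pair of number 3 in NGFC cells. Chemistry also goes with the number in both regions, so these correlations cannot show that libraries of a number share animals. DESeq2 1.42.0 was an alternative. Named genes were the 5 largest rises and falls among called members (the 3 smallest p where under 3 passed), fixed core subunits, paralogs, the mt- genes and Grin1. Members, lists and alternatives were chosen before the data were examined, with earlier results of these data known, and 4 alternatives were added after seeing them.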

Additional observations from a re-analysis of the deposited data

Results flagged for a closer look

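Cells with at least 30% mitochondrial UMIs, which the cell filter leaves out, were more frequent in null than in WT libraries of the same region, a signal in data that the comparisons do not use. The methods report such cells in null replicates of both regions and none in WT replicates, where a few were found here. They add that keeping every cell changed neither the clusters nor the genes found. Such cells made up 1.66% (3 cells) and 9.90% (287 cells) of cortical null libraries 1 and 2 and 0.743% (3 cells) and 5.97% (265 cells) of hippocampal null libraries 1 and 2. Of these shares, only that of cortical null library 2 falls in the range that the methods give. In cortical WT libraries 1 to 3 they made up 0%, 0.0519% (2 cells) and 0.101% (4 cells), and in hippocampal WT libraries 1 to 3 0%, 0.0217% (1 cell) and 0.127% (4 cells). In cortical null library 2 these cells had a median of 792 UMIs and 77 genes, and mt- members took 58.4% of their UMIs, against 1.67% in the other cells of that library. In hippocampal null library 2 the medians were 824 UMIs and 149 genes, and mt- members took 49.6%. Whether damage during preparation or genotype underlies the difference was not tested.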

How the results depend on the processing

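For counts of called members, 373 values under the alternatives stayed within 1.5 times and 36 moved. For the added tests of class differences between genotypes or regions, 130 stayed and 5 moved, from 0 to between 1 and 3, all 5 for PVALB minus NGFC. For named genes, 3122 kept direction and side of the threshold, 302 no longer passed, 14 newly passed and 2 reversed. All 212 alternative summed levels stayed within 1 SD. Under library-size scaling mt-Nd2 (interneurons minus oligodendrocyte lineage, WT) became 0.01 (0.01092) and Sdhc (null) 0.007 (0.00684). Without the library as a block, calls were 0 for PVALB minus SST and NGFC minus SST in either genotype (edgeR; 16 and 1 at an unadjusted p under 0.05 in WT, 21 and 4 in null), and 2 (WT) and 1 (null) for PVALB minus NGFC. In null libraries, leaving out mitochondrial genes gave 12 for PVALB minus SST, 12 for PVALB minus NGFC and 2 for NGFC minus SST, and an adjusted p limit of 0.05 gave 33, 39 and 11. NGFC minus SST in null libraries had 8 by DESeq2, 8 with no low-count filter and 7 with no cell left out. PVALB minus SST in null libraries had 10 at resolution 0.6 and 32 with classes of single cells. With no low-count filter, null minus WT had 1 in hippocampal SST and 1 in hippocampal NGFC cells. Leaving out each library in turn gave 45 to 64 (WT) and 7 to 23 (null) for PVALB minus SST, 3 to 12 and 0 to 4 for NGFC minus SST, 49 to 61 and 9 to 13 for PVALB minus NGFC, 62 to 69 and 46 to 59 for interneurons minus the lineage, and 0 for genotype, region and their interaction. Where an arm then held 1 library, it was assumed to vary like the others. The replicate number as a block changed no count for genotype or region. Without cluster 9, an alternative chosen after seeing the data, PVALB minus SST had 57 (WT) and 21 (null). With both regions of each replicate number summed, also chosen after seeing the data, PVALB minus SST had 30 (WT) and 13 (null), and NGFC minus SST had 4 (WT). NGFC cells were not tested for genotype in cortex or for its interaction with region. Causes of these changes were not tested. Sparse members are limited by the smallest sums of a class, such as 282395 UMIs for PVALB cells of cortical null library 1.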
